A study of Mus musculus with 12 samples.

Results

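The 9 libraries of CD8 T cells sorted from mouse brain, 3 each from naive mice, from mice 3 days after stroke and from mice 30 days after stroke, were set as a single side against the 3 libraries of CD8 T cells sorted from the blood of naive mice. They were chosen by the tissue in their labels and make up 9 of the 12 libraries of the series. The question was which transcripts separate cells sorted from the brain from cells sorted from blood in whatever stroke state the brain was. No strain, genotype, sex or age of the mice is given in the labels, and no blood was taken after stroke, so tissue and stroke state are crossed on the brain side alone. Spleens are the starting tissue in the protocol text, whereas brain or blood is the tissue in each sample's labels, which were followed here. Whether replicate libraries came from different mice is not stated, and the p-values then reflect only the spread between libraries, which may be technical. The estimate of that spread was in large part shared between genes.

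CD8 T cells are the lymphocytes that kill infected or damaged cells. In blood most of them are naive or recirculating and carry receptors for lymph node homing, whereas cells held in a tissue are known for resident memory markers, inflammatory chemokine receptors and rapid cytokine release. The brain normally holds few of them beside a large population of microglia, its resident macrophages, so a sort from brain tissue starts from a suspension rich in myeloid cells.

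Libraries held 1104490 to 2141262 reads in blood and 1157538 to 21014171 in brain, and a count of 0 allowed a level of up to 0.298 to 1.65 CPM (a gene's reads per-million of the library size after scaling), the level of 3 reads. A set of 1484 olfactory, vomeronasal and taste receptor genes, which are known from sensory cells and not from T cells, took 3275 to 5391 unscaled CPM in blood, 164 to 873 in naive brain, 252, 7813 and 4641 in day 3 replicates 1 to 3, and 518, 3163 and 2006 in day 30 replicates 1 to 3. All 3 blood libraries and 4 of the brain libraries (replicates 2 and 3 at both times) thus lay above 1323, and the other 5 brain libraries below it. Because this split moves with the comparison, the counts of the gene lists with calls are also given within the 7 libraries above it. Those 7 hold no naive brain library and only 4 brain libraries. Receptor reads, stroke state and the smaller number of libraries therefore cannot be told apart in calls lost there. Day 3 replicate 2 had the smallest share of reads on the T cell identity genes, at 0.104%, against 0.238% to 1.49% in the other brain libraries and 0.451% to 0.611% in blood. Blood replicate 2 stood apart from the other blood libraries with 0.147% of reads on neuron genes, against 0.00941% and 0.0171%, and with 0.0307% on erythroid and platelet genes, against 0.740% and 0.443%.

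Of 22352 genes tested, 633 (2.83%) passed limma's moderated test at an adjusted p under 0.05, of which 596 (2.67%) were higher in brain and 37 (0.166%) were lower. Without adjustment 2086 were higher and 1255 lower at p under 0.05. All 9 brain libraries lay above all 3 blood libraries for 421 genes (1.88%) and below them for 310 (1.39%), and 275 genes met both conditions on the higher side and 23 on the lower. Quantile normalization gave 442 higher and 96 lower, and the 7 libraries with more receptor reads gave 95 higher (0.425%) and 4 lower (0.0179%). In those 7 libraries 927 genes (4.15%) had all 4 brain values above blood and 661 (2.96%) had all 4 below. The median difference over all genes tested was -0.10 on the log2(CPM + 1) scale, and every difference below is on that scale, which understates the change of genes near 0. In this bulk measurement, fewer cells of a type and less RNA per cell cannot be told apart.

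Ly6a, which encodes Sca-1, a surface protein of stem cells and of activated and memory lymphocytes, had the largest difference. Its level was 4.87, 1.10 and 1.76 CPM in blood, and 151 at the lowest, 635 at the median and 1496 at the highest of the brain libraries. Even the lowest brain library, day 3 replicate 2, was far above all blood libraries. The difference was 7.55 ± 0.67 (SE, 9 against 3 libraries; limma adjusted p = 7.14e-14) and was 7.59 in naive brain, 7.37 at day 3 and 7.69 at day 30 against the same blood libraries. A test among the 3 brain states gave an adjusted p of 0.955 for Ly6a, and the difference within the 7 libraries with more receptor reads was 6.97 (adjusted p = 3.08e-06). Ly6a lies on chromosome 15 at 74994877 to 74998031 in the mm10 build. Siglech, a sialic acid-binding receptor of microglia and plasmacytoid dendritic cells on chromosome 7 at 55768178 to 55778925, measured 8.11, 11.0 and 5.98 CPM in blood. Its brain values ran from 199 through a median of 1008 to 1625, all above blood, with the 3 day 30 libraries lowest. The difference for Siglech was 6.29 ± 0.67 (adjusted p = 7.13e-11). Of 69 named genes that passed the test, Ly6a and Siglech were the 2 that passed under all 31 alternatives, among them a fit that shares no spread between genes, under which 3 genes passed in all.

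Complement component C1q is the starter of the classical complement pathway, and its chain C1qb ranked between Ly6a and Siglech among the named genes. C1qb measured 21.6, 17.6 and 14.1 CPM in blood and 321, 2166 and 12572 at the lowest, median and highest in brain, with no overlap and a difference of 6.84 ± 0.72 (limma adjusted p = 7.13e-11). C1qa differed by 6.06 ± 0.83, with all 9 brain libraries above blood. Among the genes with a clean separation and the largest differences were further products of myeloid cells: Ctsz, a lysosomal cathepsin (6.04), Cd63, a tetraspanin of lysosomes and granules (5.99), P2ry12, the microglial ADP receptor (5.96), Tyrobp, the DAP12 signalling adaptor (5.71), Olfml3 (5.56) and Fcgr3, an Fc receptor for IgG (5.52). S100a4, a calcium-binding protein of motile and memory cells, differed by 5.81 ± 0.75, and Egr1, an immediate early transcription factor, by 5.74 ± 0.75. Exons of Ctsz overlap those of Nelfcd and exons of P2ry12 those of Med12l, and the strand setting of the counting is not given in the sources used here, so reads there may belong to either gene.

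**Figure D1:**
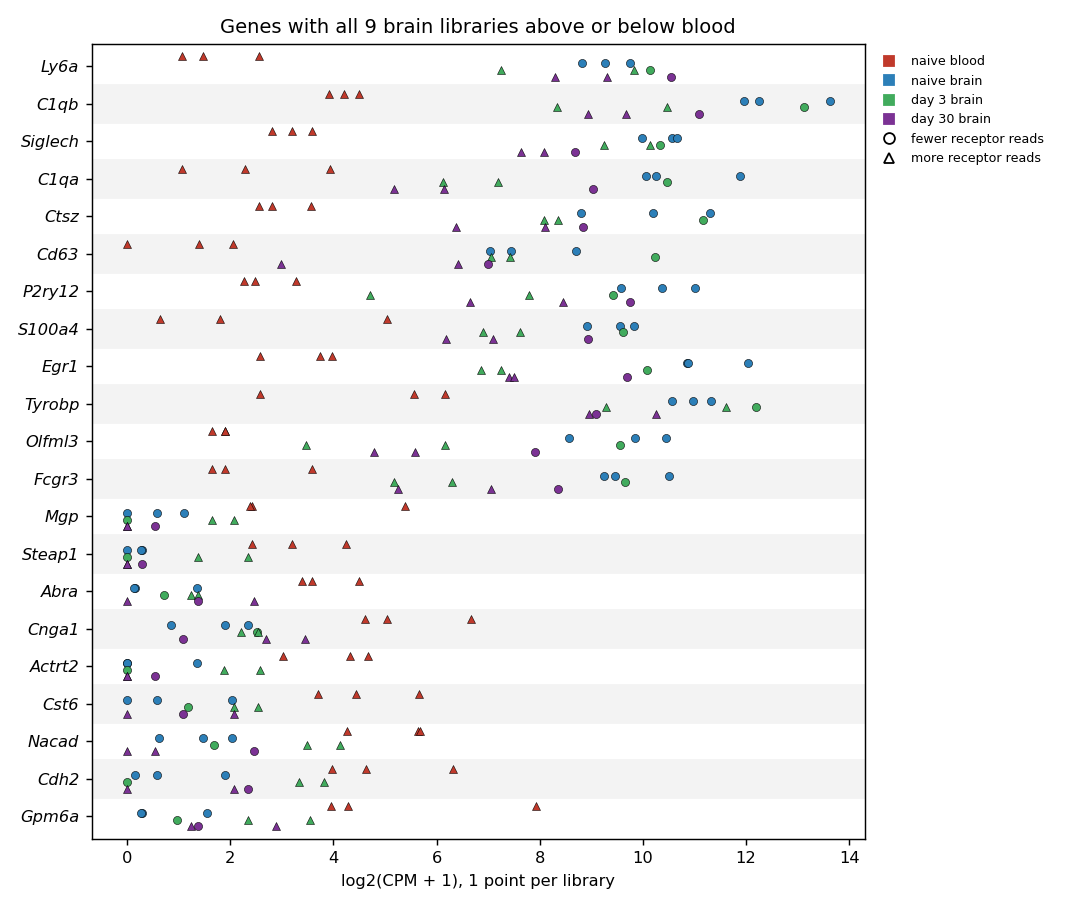
Levels of 12 named genes higher in brain, of 275 that passed with no overlap between brain and blood, and of 9 lower, of 23. The horizontal axis is log2(CPM + 1) with 1 point per library. Colour gives the group and triangles mark the 7 libraries with more receptor reads. Ly6a separates the groups by the widest interval, with blood at 1.10 to 4.87 CPM and brain at 151 to 1496 CPM, and the genes lower in brain lie near the floor of the brain libraries.

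Promoter sequence was available for 62 of the 84 named genes, as the 250 bases before the RefSeq start in GRCm38.p6. The 4 windows below hold no annotated exon base and belong to genes with all 9 brain libraries above blood, each with the motif letters found in it in capitals, 5′ to 3′ on the gene's strand. That of Cd63 (chr10:128909095-128909344, plus strand) holds the PU.1 letters GAGGAAG on the opposite strand, starting 60 bases before the start. This window lies before the RefSeq start but inside the span of Cd63 in GENCODE vM21 (128900989 to 128912822). That of Havcr2 (chr11:46454681-46454930, plus strand) holds the AP-1 letters TGANTCA 200 bases and the PU.1 letters 8 bases before the start. The N was allowed to be any base in the search and is T in this match. That of Bst2 (chr8:71537473-71537722, minus strand) holds the ISRE letters (GAAA, any 2 bases, GAAA) at 130 and 124 bases before the start, in matches that overlap each other. That of S100a4 (chr3:90603520-90603769, plus strand) holds the TATA letters TATAAA 31 bases before the start.
Cd63: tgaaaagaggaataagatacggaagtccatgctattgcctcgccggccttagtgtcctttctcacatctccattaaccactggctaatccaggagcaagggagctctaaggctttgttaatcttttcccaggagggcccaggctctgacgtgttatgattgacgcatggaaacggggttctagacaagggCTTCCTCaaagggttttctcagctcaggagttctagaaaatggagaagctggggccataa
Havcr2: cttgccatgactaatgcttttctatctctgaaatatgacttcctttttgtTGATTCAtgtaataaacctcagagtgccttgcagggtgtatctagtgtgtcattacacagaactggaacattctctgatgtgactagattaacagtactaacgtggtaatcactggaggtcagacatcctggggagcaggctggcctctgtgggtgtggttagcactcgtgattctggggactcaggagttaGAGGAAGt
Bst2: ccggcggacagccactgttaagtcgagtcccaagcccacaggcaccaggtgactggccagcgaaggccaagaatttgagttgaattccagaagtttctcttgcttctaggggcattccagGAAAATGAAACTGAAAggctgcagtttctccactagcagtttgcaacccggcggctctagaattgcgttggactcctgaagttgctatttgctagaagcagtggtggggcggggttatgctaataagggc
S100a4: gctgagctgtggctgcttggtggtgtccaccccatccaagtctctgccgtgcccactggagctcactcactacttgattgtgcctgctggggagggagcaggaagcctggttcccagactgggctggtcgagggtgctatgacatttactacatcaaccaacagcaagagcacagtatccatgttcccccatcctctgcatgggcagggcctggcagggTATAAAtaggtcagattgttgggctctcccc

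Both strands were searched for 6 sets of letters in 16184 promoters of tested genes, 443 of genes higher in brain, and 198 of genes that were higher with no overlap. GAGGAAG, the core bound by the myeloid and lymphoid factor PU.1, occurred in 10.5% of all promoters, 16.3% of those of higher genes and 17.2% of those of higher genes with no overlap. GAAA, any 2 bases and GAAA, the interferon-stimulated response element, occurred in 2.93%, 6.09% and 4.04% in the same order, and GGG, any 2 bases and TTTCC, an NF-kB site, in 1.43%, 3.39% and 3.54%. The shares were closer for TGANTCA (6.28%, 6.77% and 7.58%), TATAAA (11.2%, 9.26% and 10.6%) and TGACGTCA, the cyclic AMP response element (2.14%, 1.81% and 1.52%). These shares are descriptions of letters in a window and were not tested.

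Of the 17 tested members of the T cell identity list (CD3 chains, CD8 chains and proximal signalling proteins) none passed the test in either direction, and their median difference was 0.53 against -0.10 for all genes. That count was 3 higher without day 3 replicate 2 and 7 higher without the day 3 libraries. The median turned to -0.87 within the 7 libraries with more receptor reads, none of them from naive brain, and again no member passed there. It was -0.13 with unscaled CPM and -0.28 with quantile normalization. Cd8a, the alpha chain of the CD8 coreceptor, measured 172, 216 and 237 CPM in blood and 52.8, 766 and 2809 at the lowest, median and highest in brain. Both ends of the brain range lay beyond blood, with day 3 replicate 2 lowest and day 30 replicate 1 highest, and the difference was 1.54 ± 0.71 (limma adjusted p = 0.28). Without day 3 replicate 2, Cd8a passed at 1.97 (adjusted p = 0.0287). Cd3e, a chain of the receptor complex, differed by 2.41 ± 0.80 (adjusted p = 0.0847) and passed under 11 of 31 alternatives, among them DESeq2 (2.49, adjusted p = 0.0498) and the fit without day 3 replicate 2 (2.80, adjusted p = 0.0206). Cd8b1 differed by 0.62 ± 0.71 (adjusted p = 0.722) and lay below 0 under unscaled CPM and quantile normalization (-0.045 and -0.26). Ptprc, the pan-leukocyte CD45, measured 1698, 730.1 and 1400 CPM in blood and a median of 1447 in brain, a difference of -0.06 ± 0.64 that turned positive with median centring. Cd4 was low on both sides, at 3.24 to 6.03 CPM in blood and 0.906 to 26.8 in brain.

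Of 18 homing and adhesion genes 6 were higher in brain and none lower. Among the 6 were Cxcr3 and Ccr2, chemokine receptors that guide T cells into inflamed tissue. Cxcr3, the receptor for interferon-induced chemokines, measured 2.16, 3.29 and 15.5 CPM in blood and 39.6, 300.2 and 920.5 at the lowest, median and highest in brain. All brain libraries were above blood, the lowest being day 3 replicate 3, and the difference was 5.23 ± 0.76 (limma adjusted p = 9.49e-07). Ccr2, the receptor for CCL2, measured 15.7, 2.19 and 29.6 CPM in blood and 34.3, 129 and 443 at the lowest, median and highest in brain, again without overlap, and differed by 3.28 ± 0.74. Cxcr3 and Ccr2 passed also within the 7 libraries with more receptor reads, at 3.64 (adjusted p = 0.0142) and 3.32 (adjusted p = 0.0338), where 3 of the 18 did, and 3 also passed without blood replicate 2. Selplg, the selectin ligand PSGL-1, differed by 3.40, Icam1 by 2.92 and the integrin chain Itgb1 by 2.68. Within those 7 libraries Selplg gave 1.55 (adjusted p = 0.48). The share of reads on microglia genes, given below, was higher in every brain library, and its part in these calls was not tested. Cd44, a hyaluronan receptor of antigen-experienced T cells, had all 9 brain libraries (67.8 to 429 CPM) above all 3 blood libraries (29.1 to 58.8) with a difference of 2.11 ± 0.66 that missed the threshold (adjusted p = 0.0651).

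Effector cytokines and chemokines were higher in brain for 11 of 24 members of their list, and 5 of 22 cytotoxic effector genes were higher, with none lower in either list. Gzmk, a granzyme of effector memory CD8 T cells, measured 0, 21.9 and 3.52 CPM in blood and 16.8, 236 and 748 at the lowest, median and highest in brain. Only day 3 replicate 2 fell within the blood range, and the difference was 5.14 ± 0.81 (limma adjusted p = 5.55e-06). Xcl1, a chemokine that attracts cross-presenting dendritic cells, differed by 5.50 ± 0.89. Its exons overlap those of Gm20743, and day 3 replicate 2, at 0.910 CPM, was the single brain library below any blood library. Ccl3 and Ccl4, inflammatory chemokines, differed by 4.64 ± 0.73 and 4.51 ± 0.67, with all brain libraries above blood and calls also among the 7 libraries with more receptor reads (3.68 and 3.59). Gzmk and Xcl1 lost their calls in those 7 libraries, at 4.09 (adjusted p = 0.0529) and 3.77 (adjusted p = 0.32), where 5 of the 24 cytokine and chemokine genes and 2 of the 22 cytotoxic genes passed. Without day 3 replicate 2 the cytotoxic count was 8. Ifng differed by 4.63 ± 0.87 over all libraries (adjusted p = 0.000236) and by 2.48 within those 7 (adjusted p = 0.564). Prf1, Nkg7, Gzma and Gzmb, core genes of granule killing, did not pass, with differences of 1.22, 0.90, -0.57 and 2.31. Ccl3, Ccl4 and Tnf are also products of microglia, and the share of reads on microglia genes, given below, moved with them; its part in them was not tested.

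Inhibitory receptors were higher for 7 of 13 members tested, with a median difference of 3.19 and none lower. Pdcd1, which encodes PD-1, measured 0, 3.29 and 15.1 CPM in blood and 5.46, 55.1 and 494 in brain, a difference of 3.79 ± 0.87 (limma adjusted p = 0.00393) with overlap in day 3 replicate 2. Ctla4 differed by 3.93 ± 0.80, Entpd1 (the ectonucleotidase CD39) by 3.81 ± 0.80 and Havcr2 (TIM-3), whose promoter is printed above, by 3.57 ± 0.77. Entpd1, Havcr2 and Cd200r1 (3.19) had all 9 brain libraries above blood, while Tigit (3.43) and Cd160 (3.54) did not. The share of reads on microglia genes, given below, was also higher in every brain library. Its part in the differences of this list was not tested. Lag3 and Tox, at 0.92 and 0.19, did not pass. Within the 7 libraries with more receptor reads none of the 13 passed, with a median difference of 2.46. Without blood replicate 1 the count was 2, at a median of 2.21, and Pdcd1 and Entpd1 were among the genes that lost their calls.

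Of 18 tissue-resident memory genes, 6 were higher and none lower, and within the 7 libraries with more receptor reads 2 were higher, Bhlhe40 and Litaf. Bhlhe40, a transcription factor of resident memory cells, measured 3.79, 28 and 13.7 CPM in blood and 149, 303 and 1244 at the lowest, median and highest in brain. No brain library overlapped blood, and the difference was 4.86 ± 0.69 (limma adjusted p = 6.46e-07), with exons shared with 0610040F04Rik. Litaf, an endosomal protein, differed by 4.75 ± 0.75 without overlap. Hpgds, prostaglandin D synthase, differed by 3.29, and the signalling regulators Rgs1 and Rgs2 by 2.98 and 3.16. Litaf shares exon positions with Snn. The part of microglial RNA in the calls of this list was not tested. The surface markers most used to define residency did not pass. Cd69 measured 451, 112 and 279 CPM in blood and 92.3, 572 and 1467 in brain. For Cd69 6 of the 9 brain libraries lay above the highest blood library, day 3 replicate 3 and day 30 replicate 2 lay within the blood range and day 3 replicate 2 below it, and the gene differed by 1.13 ± 0.66 (adjusted p = 0.427). Itga1 (CD49a) differed by 1.48 ± 0.81, Cxcr6 by 2.24 ± 0.81 (adjusted p = 0.135), and Itgae (CD103), with 48.2 to 90.0 CPM in blood and 12 to 58.6 in brain, by -1.17 ± 0.75.

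Of 21 genes of naive and recirculating T cells 2 were lower in brain and none higher, with a median of -0.46. Of all 22352 genes tested 37 (0.166%) were lower. The count was 6 lower with unscaled CPM (median -1.11), with quantile normalization (-1.18) and by DESeq2 (-0.64), and 0 with median centring (0.17). Within the 7 libraries with more receptor reads 1 was lower, Dapl1, at a median of -1.47. Dapl1, a marker of naive CD8 T cells, measured 937, 315 and 606 CPM in blood and 7.28, 118 and 325 at the lowest, median and highest in brain. Naive brain replicate 1 alone reached above the lowest blood library, and the difference was -2.76 ± 0.72 (limma adjusted p = 0.0163). The adjusted p for Dapl1 was 0.18 without blood replicate 1 and 0.0800 without blood replicate 3. Cd55, a complement-regulating surface protein, differed by -2.83 ± 0.82 (adjusted p = 0.036), and its call was lost when any 1 of the 3 blood libraries was left out (adjusted p = 0.0752 to 0.271). Il7r, the receptor chain for the survival cytokine interleukin 7, measured 645, 563 and 716 CPM in blood and 87.8 to 429 in brain. Every brain library lay below blood for Il7r, with a difference of -1.40 ± 0.64 (adjusted p = 0.274), as also for Satb1 (-1.95) and Actn1 (-1.62). The lymph node homing receptor Ccr7 gave -0.40, the egress receptor S1pr1 -0.88, its regulator Klf2 1.33 and the transcription factor Tcf7 -0.58. None of these 4 passed, and with median centring Ccr7 and Tcf7 were at 0.23 and 0.048.

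**Figure D2:**
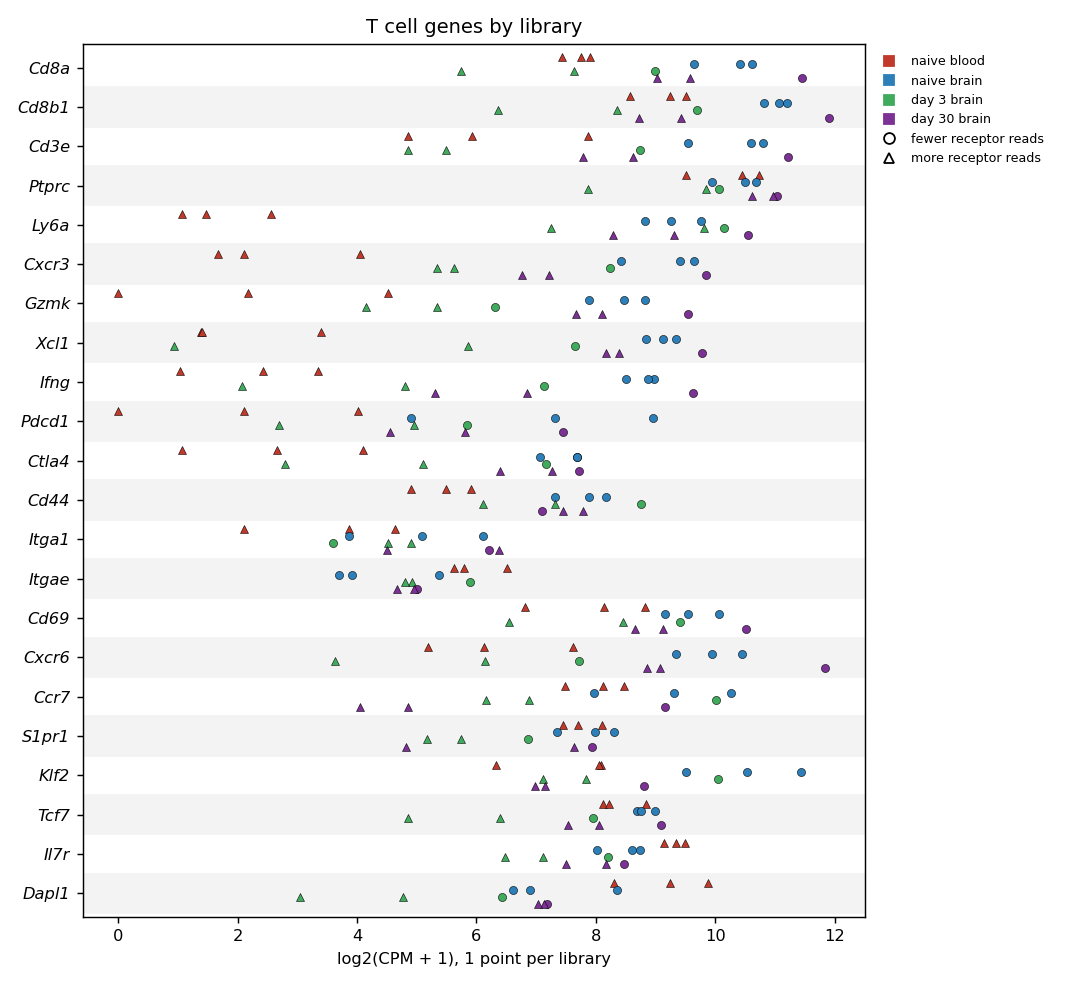
Levels of 22 T cell genes as log2(CPM + 1) on the horizontal axis, 1 point per library, with colours and shapes for group and receptor reads. Cd8a, Cd3e and Ptprc overlap between brain and blood, Ly6a, Cxcr3 and Cd44 do not, and Il7r lies below blood in all 9 brain libraries.

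Immediate early and stress genes, which are transcribed within minutes of stimulation or tissue handling, were higher for 17 of 30 members, with a median of 2.79 and none lower. Egr1 measured 12.4, 4.94 and 14.8 CPM in blood and 116, 823 and 4202 at the lowest, median and highest in brain. Fos measured 158, 26.3 and 66.5 in blood and 214, 1465 and 17498 in brain, a difference of 4.84 ± 0.76 (limma adjusted p = 5.99e-06). For both genes the 9 brain libraries lay above blood and the 3 naive brain libraries were among the highest. Fosb (4.44), Atf3 (4.70) and Socs3 (4.22) also passed without overlap. Within the 7 libraries with more receptor reads 4 of 30 passed (Egr1, Fos, Fosb and Socs3), with a median of 1.02. Leaving out blood replicate 1, 2 or 3 gave 9, 11 and 11.

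All 20 microglia markers were higher in brain, 17 of them with no overlap, at a median difference of 4.87, and their summed share of reads was 0.0767% to 0.113% in blood and 0.694% to 5.66% in brain. No microglia marker was at 0 in all blood or all brain libraries. Tmem119, a marker that circulating myeloid cells lack, measured 8.65, 23.6 and 1.76 CPM in blood and 16.8, 186 and 2447 at the lowest, median and highest in brain. It overlapped blood in day 3 replicate 2 and differed by 4.20 ± 0.87 (limma adjusted p = 0.00105). Cst3, cystatin C, measured 193 to 302 CPM in blood and 1020 to 57198 in brain (5.08 ± 0.73). Within the 7 libraries with more receptor reads 12 of the 20 passed, at a median of 3.19, and Tmem119 gave 1.79 (adjusted p = 0.684). The part of microglial RNA in the other differences was not tested.

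Lysosomal genes were higher for 12 of 17 members, all but Lamp1 without overlap, with a median of 4.40, and 9 passed within the 7 libraries. Ctsh, a cathepsin, measured 4.33, 10.4 and 13 CPM in blood and 156 to 1562 in brain (5.41 ± 0.69). Lgmn, the asparaginyl protease legumain, differed by 4.97, Ctsb by 4.56, Grn, progranulin, by 4.59 and Hexa by 3.66, whereas the osteoclast cathepsin Ctsk gave -0.74 and did not pass. Apoe, the main lipid carrier of the brain, measured 36.8, 215 and 32.0 CPM in blood and 353, 1358 and 9113 at the lowest, median and highest in brain. No brain library overlapped blood for Apoe, and its difference of 4.55 ± 0.70 was 4.61 in naive brain, 4.40 at day 3 and 4.64 at day 30. Fabp5, a fatty acid carrier, differed by 4.95 ± 0.86, and the other 10 of 12 lipid handling genes did not pass, while both calls held within the 7 libraries. Lysosomal reads were 0.0649% to 0.147% of blood and 0.208% to 1.90% of brain libraries.

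Among genes of dendritic cells and MHC class II presentation 7 of 17 were higher and none lower, with 6 higher within the 7 libraries with more receptor reads. H2-Ab1, a class II beta chain, measured 16.8, 12.1 and 23.6 CPM in blood and 38.3, 707 and 9191 at the lowest, median and highest in brain. The brain libraries were all above blood, the 3 day 30 libraries being the lowest, and the difference was 4.93 ± 0.81 (limma adjusted p = 1.49e-05). H2-Aa (6.08), H2-Eb1 (4.90), Cd74, the invariant chain (4.23), and Irf8, a transcription factor of dendritic and microglial cells (5.21), also passed. Zbtb46, Xcr1 and Clec9a, markers of conventional dendritic cells, gave -0.55, -0.27 and 0.88. In the monocyte and macrophage list 9 of 18 were higher, Spp1, osteopontin, among them, with 3 higher within the 7 libraries and 5 without blood replicate 1. Spp1 was 0.646 to 12.6 CPM in naive brain and 788 to 9672 at day 3, so its difference of 4.32 ± 1.11 (adjusted p = 0.013) came with an overlap of naive brain and blood.

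Type I interferon genes were higher for 5 of 22, and for 1, Bst2, within the 7 libraries with more receptor reads. Bst2, tetherin, whose promoter with its interferon-stimulated response elements is printed above, measured 1.08, 3.84 and 28.2 CPM in blood and 50.5, 231 and 529 at the lowest, median and highest in brain. It did not overlap and differed by 5.13 ± 0.73 (limma adjusted p = 6.65e-07). Ifit1 (3.35) and Ifit3 (2.64) lost their calls under 18 and 19 of 31 alternatives. Isg15 was at 0 in all 3 blood libraries and at 0 to 80.5 CPM in brain, and it lost its call under 19. The count of 5 was 1 without blood replicate 1, day 3 replicate 1 or day 30 replicate 1, 2 without blood replicate 2 or 3 or naive brain replicate 1, and 3 without naive brain replicate 2 or 3.

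Lists of other cells and pathways gave few calls. Of 12 natural killer cell genes 1 passed (Fcer1g, an Fc receptor chain that myeloid cells share, 4.51), of 12 B cell genes 1 (Blnk, 3.33), of 9 CD4 and regulatory T cell genes 1 (Ctla4), of 8 Gimap genes 1 (Gimap7, 2.91) and of 17 glycolysis genes 2 (Tpi1, 3.23, and Gapdh, 2.89). Exons of Tpi1 overlap those of Spsb2, and exons of Gapdh those of Iffo1. Within the 7 libraries with more receptor reads Fcer1g alone passed among these 5 lists. Without blood replicate 1 neither glycolysis gene passed, while without day 3 replicate 2 or day 30 replicate 2 or 3 that count was 5, 6 and 4. None passed in either direction among 18 proliferation, 14 TGF-beta pathway, 14 cytokine receptor, 12 neutrophil, 14 endothelial and mural, 11 astrocyte, 12 oligodendrocyte and 14 neuron genes. The neuron genes took 0.000609% to 0.0281% of brain reads and 0.00941%, 0.147% and 0.0171% of the reads of blood replicates 1 to 3. Day 3 replicate 2 (0.0281%) and day 30 replicate 2 (0.0195%) lay above blood replicates 1 and 3, and the 3 naive brain libraries lay below all blood libraries.

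**Figure D3:**
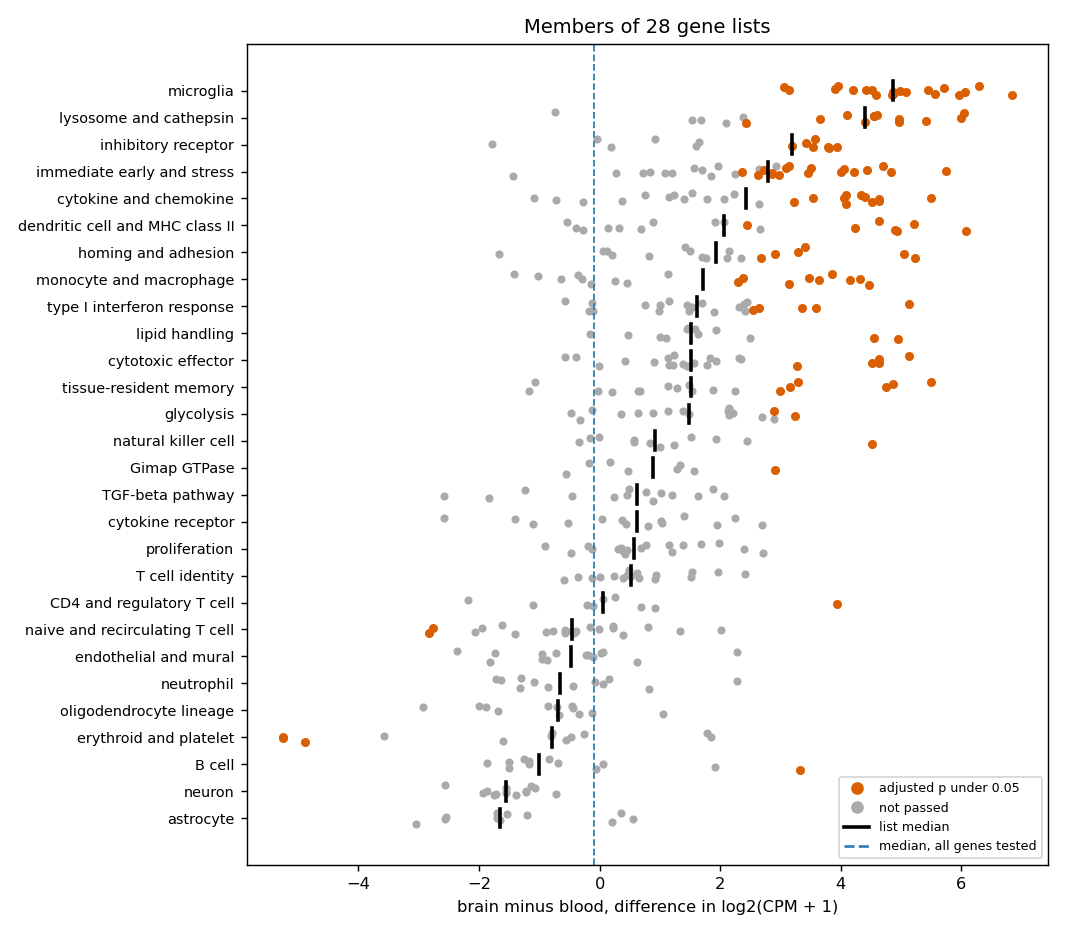
Difference of each tested member of the 28 gene lists (brain minus blood, log2(CPM + 1)), with members past the adjusted threshold in orange, list medians as black bars and the median of all genes tested as a dashed line at -0.10. Microglia (median 4.87) and lysosome (4.40) lie highest, T cell identity (0.53) near the dashed line, and astrocyte (-1.65) and neuron (-1.54) lowest.

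Haemoglobin genes were lower in brain, as 3 of the 12 tested erythroid and platelet genes, with none higher. Hba-a1 measured 1863, 43.9 and 1167 CPM in blood and 0.227, 3.45 and 449 at the lowest, median and highest in brain. Day 3 replicates 1, 2 and 3 (75.1, 258 and 449 CPM) lay within the blood range and all naive and day 30 libraries below it, with a difference of -5.24 ± 1.07 (limma adjusted p = 0.000938). Hbb-bs differed by -4.88 ± 1.04. Hba-a1 and Hba-a2 had the same count in every library, as had Hbb-bs and Hbb-b1, so their reads may belong to either copy. Without blood replicate 1 the adjusted p was 0.0632 for Hba-a1 and 0.0968 for Hbb-bs. None of the 12 passed without that library, by edgeR, by DESeq2, with median centring or within the 7 libraries with more receptor reads, where Hba-a1 gave -4.27 (adjusted p = 0.398).

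In all, 23 genes lay lower in every brain library than in any blood library and passed the test. Predicted loci, pseudogenes and receptor segments aside, 9 of them had a blood mean of at least 10 CPM. These 9 had brain medians of 0 to 4.09 CPM. Gpm6a, a neuronal membrane glycoprotein, measured 18.4, 244 and 14.4 CPM in blood and 0.199 to 10.7 in brain (-3.78 ± 0.98). Without blood replicate 2, the library with the most neuron reads, Gpm6a gave -2.51 (adjusted p = 0.333) and the cadherin Cdh2 -2.73 (adjusted p = 0.273). Cnga1, a channel of photoreceptors, measured 101, 23.6 and 31.7 CPM in blood and 0.794 to 9.94 in brain (-3.26 ± 0.94). The others were Nacad (-3.37), Cst6 (-3.32), Actrt2 (-3.30), Abra (-2.85), Steap1 (-2.78) and Mgp (-2.73). Cnga1, Nacad and Abra each lost their calls when any 1 of the 3 blood libraries was left out, and each of the other 6 lost its call without at least 1 of them. None of the 9 passed within the 7 libraries with more receptor reads, and the part of background reads in these differences was not tested.

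**Figure D4:**
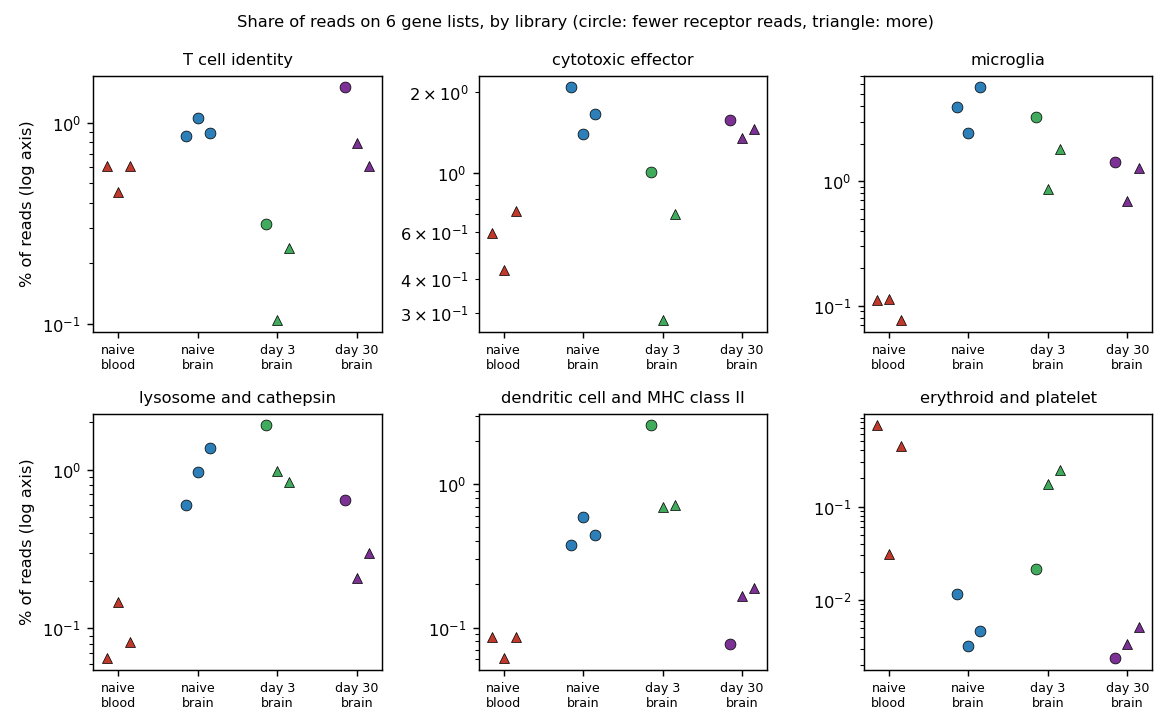
Percent of reads on 6 gene lists in each library, on a log axis, with circles for libraries with fewer receptor reads and triangles for those with more. Microglia reads lie above all blood libraries in each of the 9 brain libraries (0.694% to 5.66% against 0.0767% to 0.113%), T cell identity reads fall below blood at day 3, and erythroid and platelet reads are highest in blood replicates 1 and 3, followed by day 3 replicates 3 and 2.

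Brain states were compared within the brain side to see which of the genes that separated brain from blood also varied with stroke state. An F test in a fit with 4 group means passed 194 genes (0.868%), 51 of them among the 596 higher genes (8.56%) and 4 among the 37 lower. The named microglial and immediate early genes that passed this test were highest in naive brain. Cst3 differed from blood by 6.98 in naive brain, 3.88 at day 3 and 4.39 at day 30 (state adjusted p = 0.0131), and Fos by 7.05, 4.60 and 2.87 (0.00114). The named class II genes were lowest at day 30, with H2-Ab1 at 6.25, 6.44 and 2.10 (0.000234). Spp1 was 0.32, 8.80 and 3.85 (7.52e-08). The named T cell genes that passed were lowest at day 3: Cd3e differed by 4.09, 0.15 and 2.99 (0.00888), Cxcr6 by 3.60, -0.48 and 3.61 (0.000763), Xcl1 by 7.04, 2.75 and 6.71 (0.00739), and Cd8a by 2.53, -0.24 and 2.32 (0.0334). The 3 states share the blood libraries, so their differences from blood are not independent of each other.

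Other genes gave close values in the 3 states, although a p that misses the threshold does not show that the states are alike. Ly6a, Apoe, Litaf (5.08, 4.71 and 4.48; state adjusted p = 0.89), Bhlhe40 (5.66, 4.46 and 4.46; 0.636) and Ccl3 (5.22, 4.25 and 4.44; 0.741) were of this kind. Cd44 gave 2.36, 1.96 and 2.01 (0.915). Receptor reads differ between states as well, since all 3 naive brain libraries had few of them and 2 of 3 libraries at each time after stroke had many, and with that share as a covariate 44 genes passed the state test. With the replicate number as a block 383 did.

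**Figure D5:**
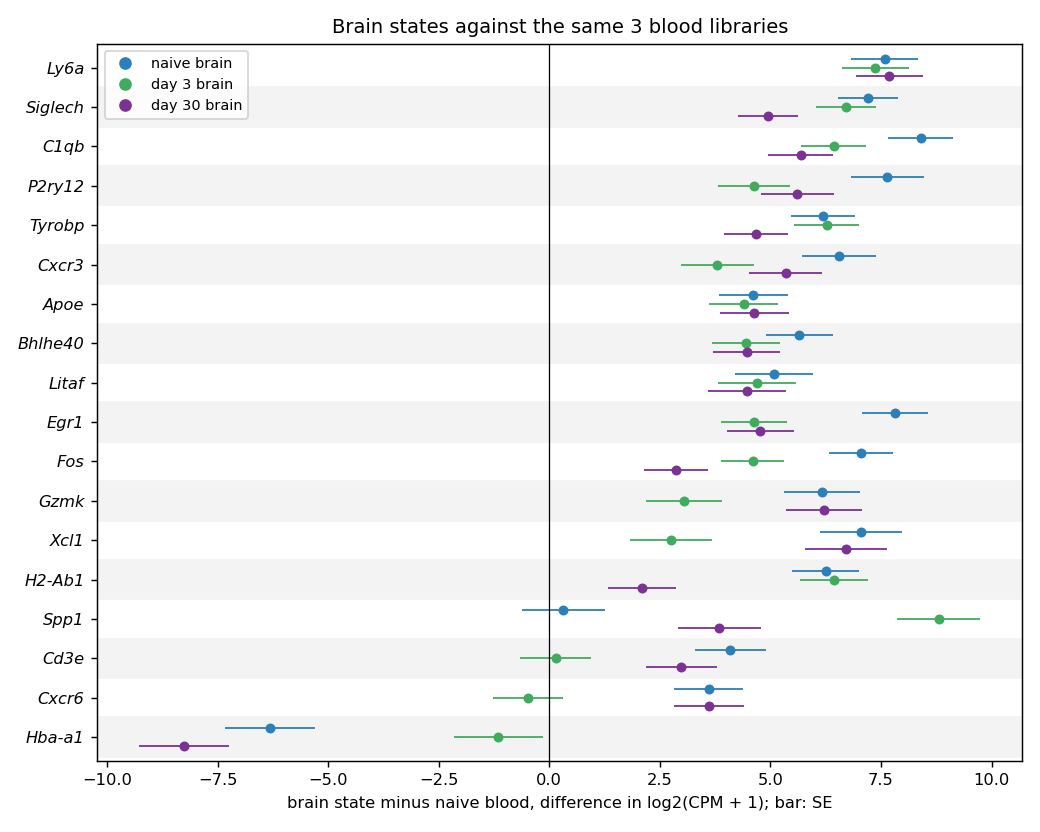
Difference of each brain state from the 3 blood libraries for 18 named genes, on the log2(CPM + 1) scale, with bars for the SE in a fit with 4 group means. Ly6a, Apoe and Litaf lie close together in the 3 states, Fos and H2-Ab1 are lowest at day 30, Xcl1, Cd3e and Cxcr6 lowest at day 3, and Spp1 highest at day 3.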

How the data were processed

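CD8 T cells were sorted into lysis buffer and amplified with a SMART-Seq v4 ultra-low input kit, per the labels' protocols; it has no molecular identifiers, so each PCR copy is a read and a floor covers counting error alone. The submitters' processing notes name FastQC 0.11.2, STAR 2.5.3a, featureCounts of Subread, edgeR and the mm10 build. Gene annotation and strand setting were not given in the sources used here.

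A single table with 23937 genes was deposited, in which the signal is a gene's count per-million reads of a library size that the authors scaled (called CPM here). In each column the values were multiples of the worth of 1 read (100% whole to within 1e-06 reads), and those reads entered the count tests.

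The log2(CPM + 1) values were tested by limma 3.58.1 (R 4.3.3; empirical Bayes with trend, 2-sided, Benjamini-Hochberg over the 22352 genes that reached 1 CPM in 3 or more libraries; 1585 genes were not tested), the 9 brain libraries against 3 blood libraries, plus an F test among brain states. In the brain against blood fit the spread shared between genes had 71.9 degrees of freedom and each gene's own spread 10. An SE printed here is therefore mostly shared spread and not the scatter of that gene alone. On simulated data (21596 genes) the brain against blood test called 11% of 100 genes changed by 2 (log2) and 67% of 100 changed by 4. It also called 6 unchanged genes. The simulated brain states had equal means and no difference in receptor reads, so these rates need not hold for the real libraries. The alternatives were pseudocounts, filters, scalings, library weights, the receptor read share as a covariate, subsets of libraries, edgeR 4.0.16 and DESeq2 1.42.0; robust and no moderation were added after seeing the data.

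The text names up to 12 genes higher and 12 lower with the largest differences that passed the test, had a mean of at least 10 CPM on the higher side and no overlap, leaving out predicted loci, pseudogenes and receptor segments; up to 4 called members per list; preset genes; and up to 6 of the first kind with the smallest p among states. Other list members are named as examples, chosen after their values were seen. Members, lists (28, with 451 genes, 439 of them in the table) and rules were chosen with earlier results of these data known. Some genes that meet this rule are not reported here. Of 84 named genes 84 were located in GENCODE vM21. Counts identical to those of another gene in all libraries were found for 121 tested genes, 6 of them called.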

Additional observations from a re-analysis of the deposited data

Results flagged for a closer look

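In the brain group of 9 libraries, day 3 replicate 2 lay apart from the others for Xcl1, at 0.9334 on the log2(CPM + 1) scale (0.910 CPM, against 57.3 in the next brain library), and for Ptprc, at 7.867 (232 CPM, against 920.0 in the next). Chance marks about 1 in 20 groups in this way, and 84 named genes were looked at. The same library had the smallest share of T cell identity reads (0.104%).

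The difference from blood varied among the 3 brain states, by limma's F test with adjustment over all genes, for 25 of 84 named genes. Of all 22352 genes tested 194 (0.868%) did so. The naming rule took Cst3, H2-Ab1, Cx3cr1, Fos, Atf3 and Jund by their p in this same test. The count of 25 is therefore partly fixed by the rule and is no result about the named genes. Among class II and myeloid genes these were H2-Ab1 (adjusted p = 0.0002336), H2-Eb1 (0.0027416), H2-Aa (0.014158), C1qa (0.018287), Olfml3 (0.043283), Cst3 (0.0131), Cx3cr1 (0.014564), Tmem119 (0.0053931), Selplg (0.033364), Fabp5 (0.022901) and Spp1 (7.5187e-08). Immediate early genes of this kind were Egr1 (0.016784), Fos (0.0011358), Atf3 (0.0072225) and Jund (0.013129). T cell genes were Xcl1 (0.007393), Gzmk (0.042666), Ifng (0.029782), Gimap7 (0.034342), Cd3e (0.0088778), Cxcr6 (0.00076349) and Cd8a (0.033364). Erythroid genes were Hbb-bs (3.7891e-05) and the indistinguishable pair Hba-a1 (2.5839e-05) and Hba-a2 (2.5839e-05).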

How the results depend on the processing

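The 633 genes called between brain and blood became 140 with median centring, 1052 with library quality weights, 79 with the receptor read share as a covariate, 99 in the 7 libraries with more receptor reads, 384 by edgeR, 962 by DESeq2, 297 without the naive brain libraries and 3 without moderation (an alternative added after seeing the data), so the calls rest on sharing the spread between genes. Leaving out 1 library gave 302 (without blood replicate 1) to 907 (without day 3 replicate 2). Genes with all brain libraries above blood, 421, became 719 with median centring, 927 in the 7 libraries, 1030 without day 3 and 903 without day 30 libraries, and 430 to 865 with 1 library left out; fewer libraries make non-overlap easier by construction. Those below, 310, became 183, 661, 1114 and 528 in the same order, and 323 to 954. The 194 genes that differed among brain states became 48 at pseudocount 0.1, 43 unfiltered, 128 under the stricter filter, 399 with unscaled CPM, 16 with median centring, 129 with quantile normalization, 1285 with library quality weights, 44 with the covariate, 58 by edgeR, 69 without naive brain, 28 without day 3 libraries, and 75 (without naive brain replicate 3) to 632 (without day 30 replicate 1) with 1 library left out. The cause was not tested.

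None of the 69 called named genes changed sign, and 26 of them kept their call under all alternatives but no moderation. Uncalled genes that turned sign were Klf2 (-0.26 with the covariate, -0.23 in the 7 libraries), Cd8b1 (-0.045 unscaled, -0.26 quantile, -0.86 covariate, -0.89 in the 7 libraries, -0.034 without naive brain), Cd4 (-0.24 unscaled, -0.035 quality weights, -0.36 without day 3), Ptprc (0.57 median centring, 0.13 quality weights, 0.057 edgeR, 0.39 without day 3, -0.42 to 0.22 with 1 library left out, above 0 without blood replicate 1 or 3 or day 3 replicate 2), Ccr7 (0.23 median centring, 0.088 quality weights, 0.68 edgeR, 0.18 DESeq2, 0.41 without day 30, -0.73 to 0.051 with 1 library left out, above 0 without day 30 replicate 2) and Tcf7 (0.048 median centring, 0.13 without day 3). The median difference over all genes was -0.10, and -0.51 with unscaled CPM, 0.53 with median centring and -0.27 by DESeq2.

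With the replicate number as a block, 693 genes were called between brain and blood and 383 among brain states. Across genes, libraries sharing a number deviated together from their groups (correlation above 0.1) in 1 of 9 pairs with blood, so the numbers were not taken to pair brain with blood. Within brain, day 3 and day 30 libraries of the same number deviated together (0.530, 0.284 and 0.165 for numbers 1 to 3), whereas naive brain did not with either (-0.421 to -0.0901). Libraries with different numbers were not compared, so whether the numbers pair the times after stroke was not tested. Receptor reads were also low in replicate 1 and high in replicates 2 and 3 at both times. Depth limits levels under 0.298 to 1.65 CPM.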

Other observations

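A list of 21 genes used as markers of plasmacytoid dendritic cells, 5 of them also in another list, was chosen after the values were seen, so its values are a description without a test. Cox6a2, a cytochrome oxidase subunit, measured 17.3, 0 and 7.04 CPM in blood and 17.7, 172 and 1192 at the lowest, median and highest in brain, a difference of 5.18 ± 0.79. Ly6d, a surface protein of lymphoid progenitors, differed by 5.63 ± 0.93 and Rnase6 by 5.21 ± 0.81, followed by Lair1 (4.88), Pltp (4.15), Runx2 (3.55) and the E protein Tcf4 (3.29). Spib, Tlr9 and Irf7 gave 2.80, 0.88 and 2.30. Upb1, Pacsin1, Cd209d, Ccr9 and Smim5 gave 0.42, 2.06, 1.75, 1.41 and 0.86. Neither these genes nor Spib, Tlr9 and Irf7 passed the test between brain and blood. Reads on the list were 0.0239% to 0.0484% of blood, 0.199% to 0.385% of naive brain, 0.428% to 1.29% of day 3 and 0.0925% to 0.183% of day 30 libraries. Siglech, also in the microglia list, and Irf8, also in the dendritic cell list, are part of this sum. In this sum every brain library lay above blood and day 3 lay highest, but single genes did not all follow it. In day 30 replicate 1, Ly6d was at 0.227 CPM, below blood (1.62 to 4.22). Cox6a2 was at 17.7 CPM there, close to blood replicate 1 (17.3).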
